A study of Rattus norvegicus with 11 samples.

Results

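NF-kappaB is a family of dimeric transcription factors that turn on genes of inflammation, survival and stress. In resting cells the dimers are held in the cytoplasm by inhibitor proteins, and signals from cytokine and pattern-recognition receptors have those inhibitors destroyed. Several inhibitors are themselves NF-kappaB targets, so their messenger RNA rises when the pathway is active and brings it back down. The genes described here are 3 groups of that circuit. The DNA-binding subunits were Nfkb1, Nfkb2, Rela and Relb, and the other feedback genes were Tnfaip3 and Birc3. The inhibitor family held the cytoplasmic inhibitors Nfkbia and Nfkbie and the nuclear members Nfkbiz and Bcl3, which do not hold dimers in the cytoplasm. They were selected by gene symbol alone, as every probe whose symbol in the platform's annotation was one of these 10. Of the 10 genes, 8 had a probe, with 9 probes among 30367 on the array, and Rela had 2. Relb and Tnfaip3 had no probe with that symbol and were not analysed here. All 9 probes were among the 18619 that passed a filter on dim signal, a mean within-array percentile above 50 in at least 1 of the 9 sample groups.

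The arrays measured total RNA of rat cells and exosomes, small vesicles that cells release. EC, labelled endothelial cells, and RF, labelled endothelial fibroblasts, were each measured untreated, after AS exosomes and after ASTspan8 exosomes, where AS is a pancreatic adenocarcinoma line and ASTspan8 is AS expressing tetraspanin 8, a membrane protein of exosomes. RNA of ASTspan8 exosomes themselves was measured too, and so was ASML, another pancreatic adenocarcinoma line, both unmodified (wild type) and after knock-down of the adhesion receptor CD44. EC treated with ASTspan8 exosomes and exosome RNA were each measured on 2 arrays and the other 7 groups on 1, which makes 11 arrays, and this number limits the precision. The culture medium of all lines was RPMI, to which serum and the antibiotic G418 were added. The exosome dose, the length of treatment, the vector behind tetraspanin 8 and whether the knock-down line is a clone are not given in the sources used here, and no array of AS or ASTspan8 cells was analysed here.

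The labels of the recipient cells were checked against marker genes. On the EC control array 2 of 17 endothelial markers lay above log2 9, with the junction protein gene Cdh5 at 7.87 and the receptor gene Kdr at 6.52, against 16 of 20 fibroblast markers. The RF control array gave the same counts, 2 of 17 and 16 of 20. In ASML wild type 17 of 19 epithelial markers lay above log2 9, against 1 of 19 on each untreated recipient array. Leukocyte markers above log2 9 numbered between 1 and 3 of 15 on every array. The EC duplicates had 0.0483% of probes at least 2-fold apart and the exosome RNA duplicates 1.92%, but no probe of the 8 genes differed by more than 0.14 log2 within either pair. Cd44 itself was lower by 1.26 log2 in the knock-down on its brightest probe (12.30 against 13.56), while its 3 dimmer probes differed by -0.11, 0.51 and 1.34. That brightest probe was far apart within the exosome RNA duplicates, at 6.02 and 11.11.

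Promoter sequences show what these genes share besides their names. The kappaB consensus motif, the 10-base sequence that NF-kappaB dimers recognise, was searched on both strands of RefSeq promoter windows (assembly GRCr8) reaching from 250 bases before to 50 bases after each gene's start. A window was counted once however many matches it held. The motif was found in 7 of the 8 windows listed for these genes, against 7.51% of all 33469 windows of the same length, and in 11 of 29 windows of the target gene list used further on. The windows with a match include that of Tnfaip3, a gene without a probe here, which held 3 matches. Birc3 and Relb are not in the table. The stretches below are 40 bases from the windows of the 6 measured genes with a match, printed 5′ to 3′ on the gene's strand with the motif in capitals, to show how closely the matches resemble each other.
Nfkb1, chr2:226805435-226805474, minus strand: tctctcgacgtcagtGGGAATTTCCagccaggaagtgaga
Nfkb2, chr1:255108339-255108378, plus strand: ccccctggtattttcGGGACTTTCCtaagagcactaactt
Nfkbia, chr6:78597079-78597118, minus strand: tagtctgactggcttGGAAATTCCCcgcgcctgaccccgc
Nfkbie, chr9:22948012-22948051, minus strand: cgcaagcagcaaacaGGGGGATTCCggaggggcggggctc
Nfkbiz, chr11:58251693-58251732, plus strand: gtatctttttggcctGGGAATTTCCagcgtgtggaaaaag
Bcl3, chr1:88613569-88613608, minus strand: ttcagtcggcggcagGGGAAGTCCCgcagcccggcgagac

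Nfkb1 and Nfkbiz carry the same 10 bases, Nfkbia carries the motif on the opposite strand, and the Bcl3 stretch reads as a match on both strands. The match begins within 38 bases of the start in every one of these genes except Nfkbie, where it lies 164 bases before it. The window of Rela, the gene with the smallest range over the 11 arrays (1.55 log2), held no match on either strand and is printed whole for comparison. A match describes letters and is not a binding site, and its absence says only that these letters are not in this window.
Rela, chr1:212354086-212354385, plus strand: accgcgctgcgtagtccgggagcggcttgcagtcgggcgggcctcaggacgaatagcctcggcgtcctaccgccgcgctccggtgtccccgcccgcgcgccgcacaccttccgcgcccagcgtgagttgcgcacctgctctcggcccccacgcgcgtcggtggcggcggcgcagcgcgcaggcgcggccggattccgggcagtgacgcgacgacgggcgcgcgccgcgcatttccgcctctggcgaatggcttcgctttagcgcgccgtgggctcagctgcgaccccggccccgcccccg

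**Figure D1:**
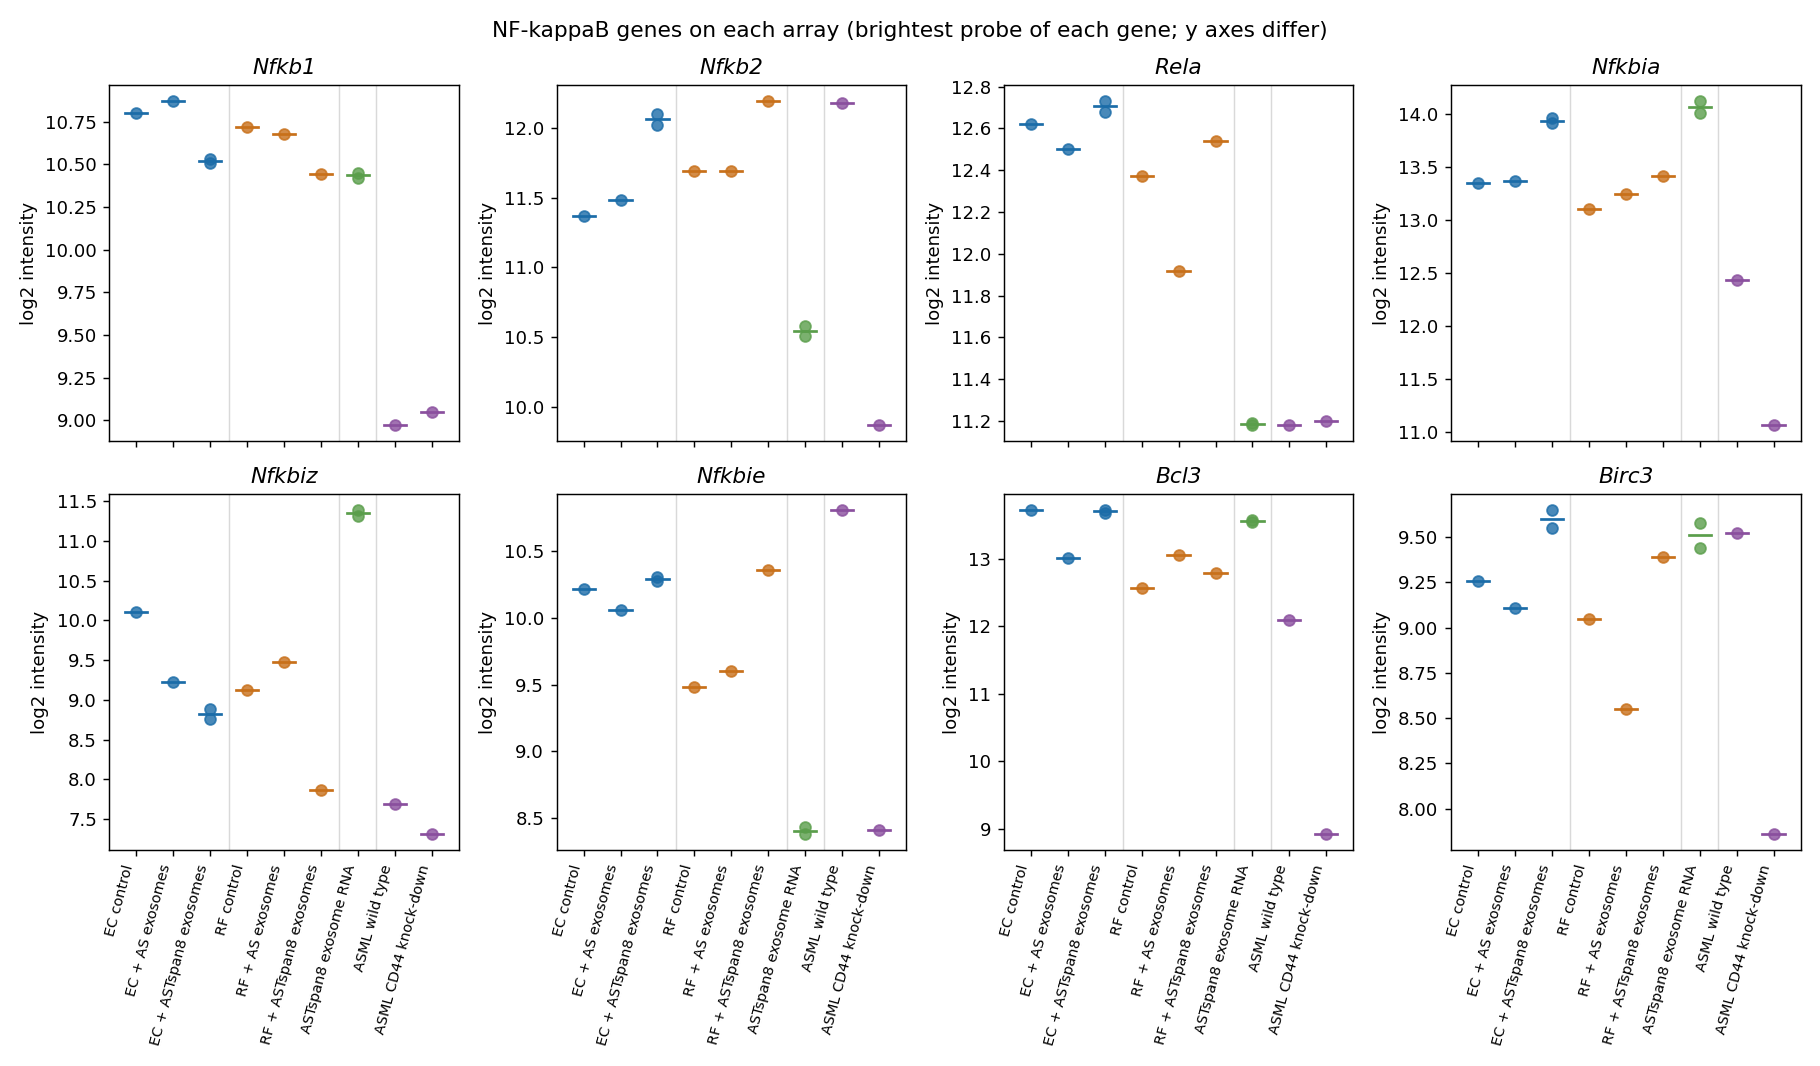
Log2 intensity of the brightest probe of each gene (y axis, scaled per gene) in the 9 sample groups (x axis); each point is 1 array and each bar a group's mean, in blue for EC, orange for RF, green for exosome RNA and purple for ASML. Nfkb2, Nfkbie, Bcl3, Birc3 and Nfkbia have their lowest or joint lowest level in ASML with CD44 knock-down, and Nfkbiz its highest in exosome RNA. Rela, Nfkb1, Nfkbia, Bcl3 and Nfkbiz lie higher in every EC and RF group than in ASML.

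In ASML cells with CD44 knocked down, Bcl3, Nfkbie, Nfkb2, Birc3 and Nfkbia were low and the subunit genes Rela and Nfkb1 were level with wild type. Bcl3, a nuclear inhibitor family member that binds NF-kappaB dimers on DNA, was at 8.92 log2 in the knock-down against 12.09 in wild type, a difference of -3.17. Nfkbie, which encodes the cytoplasmic inhibitor IkappaB-epsilon, was at 8.41 against 10.81 (-2.40). Nfkb2, whose protein p100 is processed to the subunit p52 in the non-canonical branch of the pathway, was at 9.87 against 12.18 (-2.31). On these 3 genes the knock-down array lay at 0.111, 0.189 and 0.202 of the wild-type signal.

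Birc3, a ubiquitin ligase of the TNF receptor complex, was at 7.86 in the knock-down and 9.52 in wild type (-1.66). Nfkbia, the main cytoplasmic inhibitor IkappaB-alpha and a standard readout of the pathway, was at 11.06 and 12.43 (-1.37). Nfkbiz, a nuclear inhibitor family member needed for some late inflammatory genes, differed by less, at 7.31 and 7.69 (-0.38), and it was dim on both arrays. The subunit genes Rela (11.20 and 11.18) and Nfkb1 (9.05 and 8.97) differed by 0.02 and 0.08, within the 0.14 seen between duplicates, and the dimmer Rela probe by 0.22. In all, 5 of the 8 genes were at least 2-fold lower and 0 at least 2-fold higher, where 19.1% of all 18619 probes were at least 2-fold apart, 9.39% lower and 9.66% higher. The median over the 8 genes was -1.52, beside -0.01 over all genes. With 1 array of each line there is no replicate check and no test, and fewer cells of a type and less RNA per cell cannot be told apart in bulk samples.

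**Figure D2:**
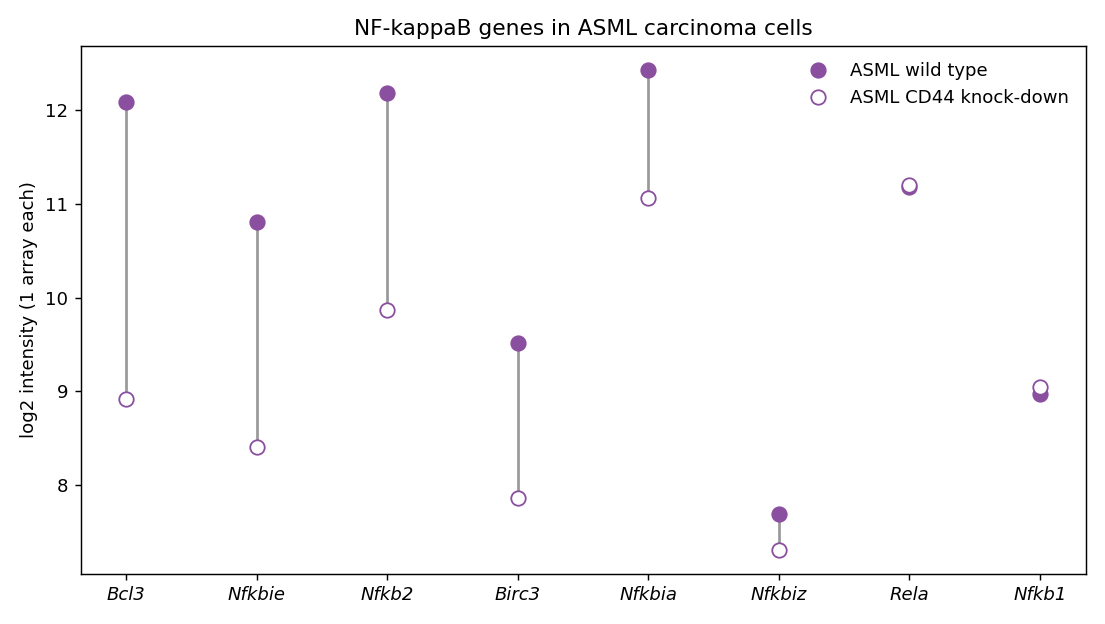
Log2 intensity (y axis) of each NF-kappaB gene (x axis, ordered by difference) on the ASML wild-type array (filled) and the CD44 knock-down array (open), 1 array each. The gap runs from 3.17 log2 for Bcl3 on the left to nearly none for Rela and Nfkb1 on the right.

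The wider pathway was mixed in the same comparison, where 9.39% of all probes were at least 2-fold lower and 9.66% higher. Of 10 other subunit, inhibitor and kinase genes, 2 were at least 2-fold lower: Map3k14, the kinase NIK that starts p100 processing (-1.78; 7.42 against 9.20), and the inhibitor gene Nfkbib (-1.55). Another 3 were at least 2-fold higher, such as the IkappaB-kinase relative Ikbke (3.08; 10.40 against 7.32) and Map3k7, the kinase TAK1 (1.06). The list's median was 0.16. Of 19 receptor and adaptor genes 3 were lower, namely the adaptor Myd88 (-1.36), the kinase Irak1 (-1.20) and the adaptor Bcl10 (-1.18), and 2 were higher, among them the negative regulator Irak3 (1.87).

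Among 35 known NF-kappaB target genes 8 were at least 2-fold lower and 2 higher, with a median of 0.03. Over all probes the shares were 9.39% lower and 9.66% higher. The growth factor gene Csf2 (-2.92), the chemokine gene Cxcl2 (-2.83) and the stress gene Gadd45b (-1.93) were low, and the iron-binding protein gene Lcn2 was high (2.29). Of 8 other feedback genes, such as Tnip1 and Cyld, and of 4 ligand genes, 0 were 2-fold apart in either direction. Epithelial markers moved in this comparison too: their summed signal was 400955 in wild type and 146078 in the knock-down, with 17 and 16 of 19 above log2 9. The summed fibroblast marker signal was 26485 and 123786, with 4 and 5 of 20 above log2 9. The summed leukocyte marker signal was 9048 and 4634, with 2 of 15 above log2 9 on both arrays, and 2 of 9 measured were at least 2-fold lower, Cd74 (-2.93) and Itgax (-1.58), with a median of -0.40. The part of any of these in the NF-kappaB values was not tested.

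In EC 3 of the 8 genes passed in limma between 2 arrays with ASTspan8 exosomes and 1 control array, where 24.1% of all probes passed. Nfkb2 stood at 11.37 on the control array, 11.48 after AS exosomes and 12.02 and 12.10 after ASTspan8 exosomes. It rose by 0.69 ± 0.08 log2 over control (SE, n = 2 against 1), a 1.61-fold change with adjusted p = 0.0209 by limma. Nfkbia stood at 13.35 untreated, 13.37 with AS and 13.91 and 13.96 with ASTspan8 exosomes, and rose by 0.58 ± 0.08 (adjusted p = 0.0262 by limma). For both genes the AS array was level with the control and the 2 ASTspan8 arrays lay above either.

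Nfkbiz moved the other way. It was highest on the control array, at 10.11, with 9.22 after AS and 8.89 and 8.76 after ASTspan8 exosomes, and it fell by 1.28 ± 0.09 (adjusted p = 0.0164 by limma), to 0.41 of control. Both exosome types lay below the single control array here, and on that array the target gene Il6 (8.48 against 7.01 to 7.06 on the other 3 EC arrays) and the mRNA-decay factor Zfp36 (8.73 against 7.45 to 7.85) were high as well. The part of that array in the Nfkbiz value was not tested.

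The other 5 genes did not pass. Nfkb1, which encodes p105 and its product p50, gave -0.28 ± 0.07 (adjusted p = 0.0593), and Birc3 gave 0.34 ± 0.10 (adjusted p = 0.0897). Rela gave 0.08 on its brighter and 0.17 on its dimmer probe, Nfkbie 0.07 and Bcl3 -0.02. Thus 2 of 8 genes rose and 1 fell, where 24.1% of probes passed, 12.1% higher and 12% lower, and the median of the 8 genes was 0.08 beside 0.01 over all genes. With either of the 2 ASTspan8 arrays left out, 0 of 8 genes and 0 of 18619 probes passed in limma, while 3 of the 8 genes and 4381 or 4434 probes had an unadjusted p under 0.05.

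**Figure D3:**
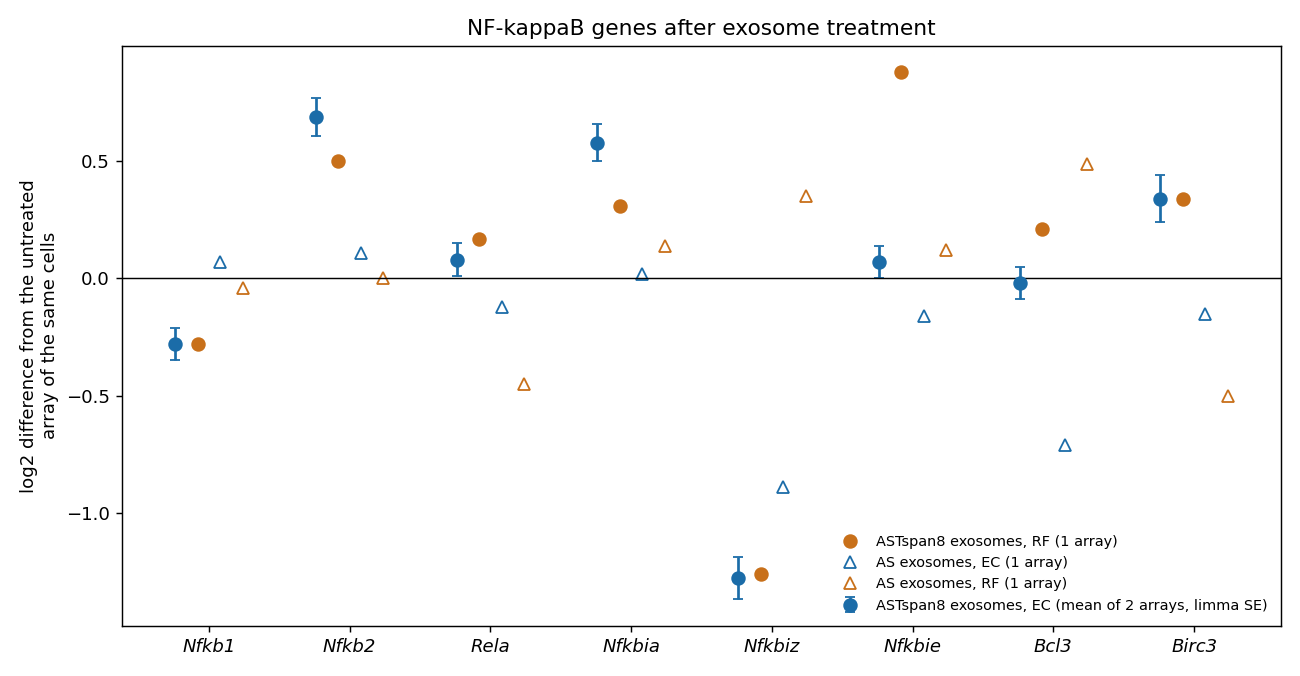
Log2 difference from the untreated array of the same cells (y axis) for each NF-kappaB gene (x axis). Filled circles are ASTspan8 exosomes and open triangles AS exosomes, in blue for EC and orange for RF; error bars are limma's SE for the EC mean of 2 arrays, and the other values rest on 1 array. Nfkbiz lies below -1.2 after ASTspan8 exosomes in both cell types, and Nfkb2 and Nfkbia lie above 0.

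Between ASTspan8 and AS exosomes in EC, 3 of 8 genes passed in limma as higher after ASTspan8 exosomes. Bcl3 was at 13.01 after AS and 13.72 and 13.68 after ASTspan8 exosomes, a rise of 0.69 ± 0.07 (n = 2 against 1; adjusted p = 0.0275 by limma). Here the AS array was the low one, since the control stood at 13.72. Nfkb2 rose by 0.58 ± 0.08 (adjusted p = 0.0342) and Nfkbia by 0.56 ± 0.08 (adjusted p = 0.0366). Just short of the threshold were Nfkb1 (-0.35, adjusted p = 0.0509), Birc3 (0.49, adjusted p = 0.0568) and Nfkbiz (-0.40, adjusted p = 0.0698). So 3 of 8 genes rose and 0 fell, where 14.9% of probes passed, 7.54% higher and 7.38% lower, with a median of 0.36 beside -0.01 over all genes. These calls were not stable: 0 of 8 genes passed in limma when the spread came from the EC duplicates alone, although all 8 then had an unadjusted p under 0.05, and 7 of 8 passed with trend and robust moderation.

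In the wider pathway 7 of 35 target genes in EC were higher after ASTspan8 exosomes than in control and 6 were lower. Among them were the complement gene Cfb (1.67), the chemokine genes Cxcl10 (1.57) and Cx3cl1 (1.22) and the cytokine gene Il6 (-1.44). After AS exosomes Cxcl10 (1.00), Cx3cl1 (1.19) and Il6 (-1.47) differed from the same control array in the same direction, and Cfb (-1.45) in the other. Of 19 receptor and adaptor genes 3 rose, such as the TNF receptor gene Tnfrsf1b (0.73) and the pattern-recognition receptor gene Tlr2 (0.51), and 2 fell, Bcl10 (-0.75) and Tnfrsf12a (-0.70). The inhibitor-related gene Nfkbil1 (0.66) and the kinase adaptor gene Tab1 (0.38) rose among 10 other subunit, inhibitor and kinase genes. Of 8 other feedback genes only the deubiquitinase gene Otud7b (0.45) passed. Of 4 ligand genes Tnfsf12 (0.55) rose and Il1a (-0.33) fell. The medians of all these lists lay between 0.00 and 0.17, beside 0.01 over all genes. Against AS exosomes 11 of 35 target genes were higher and 3 lower (median 0.14), led by Cfb (3.13), Lcn2 (3.01) and the complement gene C3 (2.14). Here the AS array was a low one, since Lcn2 (-3.55) and C3 (-1.86), like Cfb, lay below the control on it. Over all probes 24.1% passed against control (12.1% higher, 12% lower) and 14.9% against AS exosomes (7.54% higher, 7.38% lower). With either EC array of ASTspan8 exosomes left out, limma called 0 of 18619 probes in both comparisons, with 3538 to 4434 at an unadjusted p under 0.05.

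RF was measured on 1 array per condition, so its values carry no test. After ASTspan8 exosomes Nfkbiz was at 7.87, against 9.13 in the control and 9.48 after AS exosomes. That is a difference of -1.26 from control, close to the -1.28 of EC. Nfkb2 was at 12.19 against 11.69 and 11.69 (0.50), and Nfkbia at 13.41 against 13.10 and 13.24 (0.31). Nfkb1 was at 10.44 against 10.72 and 10.68 (-0.28). In these 4 genes the sign was that of EC, and the ASTspan8 effects in EC and in RF were not shown to differ for any of them (adjusted p = 0.322 for Nfkb2, 0.196 for Nfkbia, 0.922 for Nfkbiz and 1 for Nfkb1 by limma).

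Nfkbie was level in EC and high on the RF array with ASTspan8 exosomes. In RF it stood at 9.48 untreated, 9.60 with AS and 10.36 with ASTspan8 exosomes (0.88 over control), while in EC all 4 arrays lay between 10.06 and 10.31. The ASTspan8 effect in EC minus that in RF was -0.81 ± 0.11 log2 (adjusted p = 0.0161 by limma), the single gene of 8 to pass where 31.5% of probes did, 15.9% higher in EC and 15.6% lower. Of 18 fibroblast markers 11 were higher in the same comparison and 0 lower. Of 9 leukocyte markers 0 were higher and 3 lower, Lyz2 (-1.78), Cd68 (-1.72) and Adgre1 (-0.60). The part of either marker set in the Nfkbie value was not tested. The Nfkbie value rests mostly on 2 single RF arrays, whose own spread was not measured and was taken from the duplicates of other groups. It did not pass with either of the EC duplicates left out (adjusted p = 0.116 and 0.119 by limma). Untreated RF was the low group here, and with ASTspan8 exosomes its level met that of EC.

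Birc3 in RF was at 9.39 after ASTspan8 exosomes, 9.05 in the control and 8.55 after AS exosomes, and Rela at 12.54, 12.37 and 11.92. The low value of Rela after AS exosomes was seen on the brighter probe (-0.45 from control) and not on the dimmer one (-0.03; 7.39 against 7.42), and the mean of both probes gave -0.24. Bcl3 was at 12.78, 12.57 and 13.06, so that AS exosomes gave 0.49 in RF and -0.71 in EC. Against control 1 of 8 genes, Nfkbiz, was at least 2-fold lower after ASTspan8 exosomes in RF and 0 were at least 2-fold higher, where 9.17% of probes were 2-fold apart, 4.53% lower and 4.64% higher. Against AS exosomes it was again Nfkbiz alone (-1.61), where 9.87% of probes were 2-fold apart, 5.57% lower and 4.3% higher. The dimmer Rela probe gave 0.44 where the brighter gave 0.17. Fibroblast markers moved in RF as well, with a summed signal of 987523 untreated, 749905 with AS and 435688 with ASTspan8 exosomes and with 16, 15 and 16 of 20 above log2 9. Of 9 leukocyte markers 2 were at least 2-fold higher after ASTspan8 exosomes in RF than in control, Lyz2 (1.82) and Cd68 (1.18), and 0 lower. The part of either marker set in these values was not tested.

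After AS exosomes alone no gene was 2-fold apart from control in either cell type, where 1.12% of probes were in EC (0.0967% higher and 1.03% lower) and 2.16% in RF (0.983% higher and 1.18% lower). The differences ran from -0.89 (Nfkbiz) to 0.11 (Nfkb2) in EC and from -0.50 (Birc3) to 0.49 (Bcl3) in RF. In EC the comparisons of AS and of ASTspan8 exosomes with control share the control array. Of 35 target genes 2 were at least 2-fold higher and 7 lower after AS exosomes in EC, among them Lcn2 (-3.55), C3 (-1.86) and the superoxide dismutase gene Sod2 (-1.48), and 2 were higher and 1 lower in RF, where Sod2 was at 1.55. Of the target genes after ASTspan8 exosomes in RF, 4 were at least 2-fold higher, such as Gadd45b (2.08), and 5 lower, such as the adhesion gene Vcam1 (-3.22), Cx3cl1 (-2.34) and the chemokine gene Cxcl1 (-1.95). In that comparison 9.17% of all probes were 2-fold apart, 4.64% higher and 4.53% lower.

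**Figure D4:**
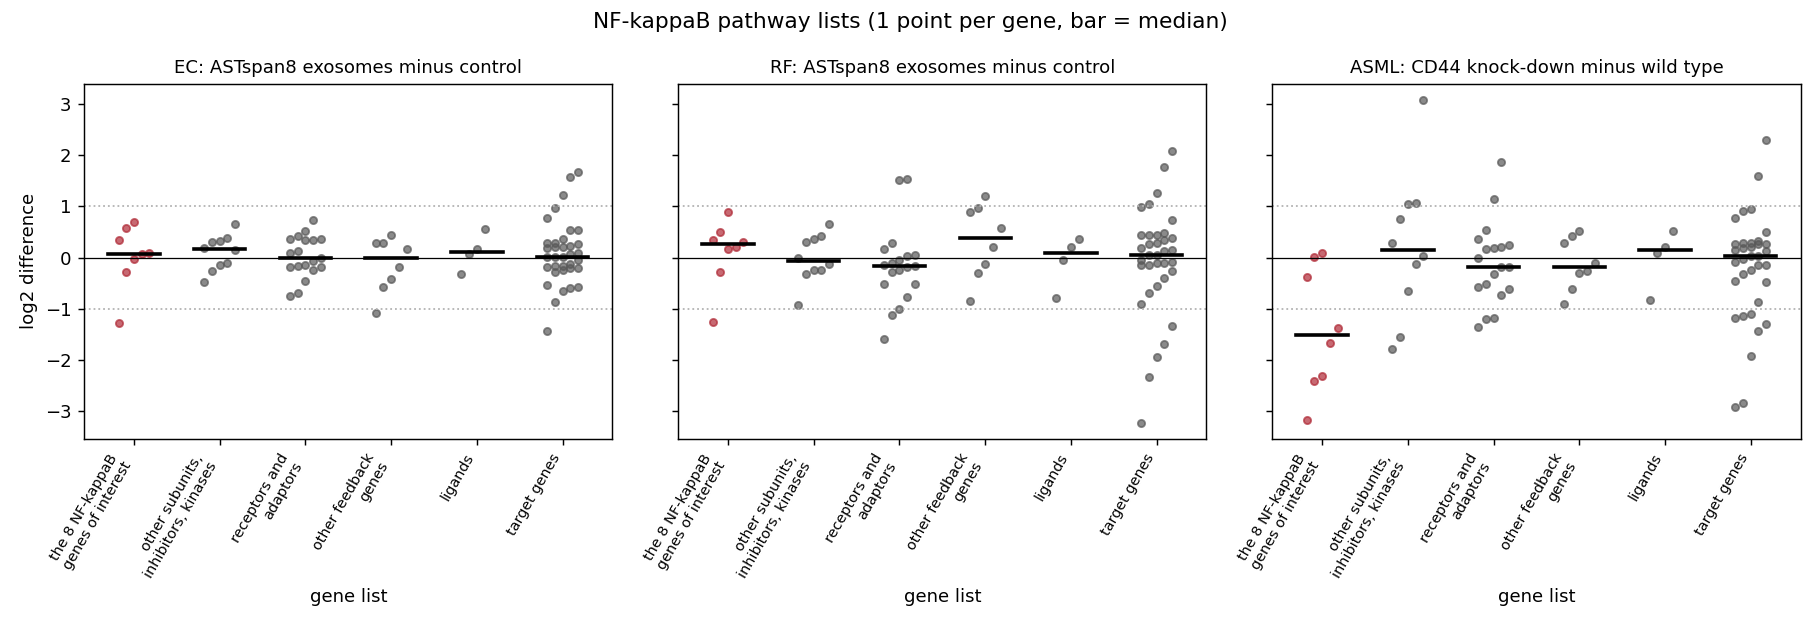
Log2 differences (y axis) of the genes of each pathway list (x axis) in 3 comparisons; each point is 1 gene, black bars are medians and dotted lines mark a 2-fold difference. The 8 NF-kappaB genes of interest, in red, have a median of 0.08 in EC, 0.26 in RF and -1.52 in ASML with CD44 knock-down, while the medians of the wider lists lie between -0.19 and 0.39.

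Averaged over both cell types, in an additive fit on 7 arrays, 0 of 8 genes passed for any treatment comparison in limma. For ASTspan8 exosomes against control the 3 genes with an unadjusted p under 0.05 were Nfkb2 (0.61 ± 0.13, adjusted p = 0.201), Nfkbiz (-1.21 ± 0.30, adjusted p = 0.211) and Nfkbia (0.48 ± 0.15, adjusted p = 0.245), and 0.00537% of all probes passed. For ASTspan8 against AS exosomes 5 of 8 genes had an unadjusted p under 0.05, led by Birc3 (0.65 ± 0.15, adjusted p = 0.219), and 0% of probes passed although 2835 had an unadjusted p under 0.05. For AS exosomes against control it was 0 of 8, with 0% of probes passing and 669 at an unadjusted p under 0.05. EC against RF gave 0 of 8, beside 8.52% of probes (5.09% higher in EC, 3.44% lower), and 4 of 8 at an unadjusted p under 0.05, namely Rela, Nfkbia, Bcl3 and Birc3. Bcl3 had the largest difference of these 4 (0.70 ± 0.23, adjusted p = 0.112 by limma), and Nfkbiz gave 0.60 ± 0.26 with an unadjusted p of 0.0598. In this fit any difference between EC and RF in the response counts as spread.

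RNA of ASTspan8 exosomes was set against ASML cells, which are another tumour line, so that vesicle and line cannot be told apart. Nfkbiz was at 11.39 and 11.32 in exosome RNA, the highest of all groups, and at 7.69 in ASML wild type. The difference was 3.66 ± 0.09 log2 (n = 2 against 1; adjusted p = 1.50e-04 by limma), 12.7-fold. Nfkbia was at 14.12 and 14.01 against 12.43 (1.63 ± 0.08), Bcl3 at 13.57 and 13.54 against 12.09 (1.46 ± 0.07) and Nfkb1 at 10.45 and 10.42 against 8.97 (1.46 ± 0.07). These 4 genes were higher in exosome RNA on both arrays.

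Nfkbie and Nfkb2 were lower in exosome RNA. Nfkbie was at 8.43 and 8.38 against 10.81 (-2.40 ± 0.07) and Nfkb2 at 10.58 and 10.51 against 12.18 (-1.63 ± 0.08), each past the threshold. Rela (11.19 and 11.18 against 11.18) and Birc3 (9.58 and 9.44 against 9.52) differed by 0.00 and -0.01 and did not pass. In all 4 of 8 genes were higher and 2 lower, where 65.6% of probes passed, 28.1% higher and 37.5% lower. Epithelial markers differed as well, with 18 of 19 lower in exosome RNA and a summed signal of 17121 and 17391 against 400955, and their part in these values was not tested. Among 35 target genes 21 were higher and 10 lower (median 1.22 beside -0.09 over all genes), with Lcn2 (9.53), C3 (8.82) and the chemokine genes Ccl2 (8.68) and Ccl20 (6.84) leading. Of 4 ligand genes 3 were higher, Tnf (3.02), Il1a (2.01) and Tnfsf12 (0.62).

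The genes ordered the 9 groups differently. Rela, Nfkb1, Nfkbia, Bcl3 and Nfkbiz each had all 6 EC and RF groups above both ASML groups. For Nfkbiz the gap from the lowest recipient group to ASML wild type was only 0.18. For Rela the gap from the lowest recipient group to the next was 0.72, and ASML wild type, ASML knock-down and exosome RNA did not differ beyond the duplicate spread. For Nfkb1 exosome RNA stood with the recipient cells, 1.39 above the ASML groups. Nfkb2 and Nfkbie had their lowest levels in ASML with CD44 knock-down and in exosome RNA, with ASML wild type among the highest 2 groups. Their group means had r = 0.89 with each other over the 9 groups, and Nfkbia and Bcl3 had r = 0.95, the highest values of all pairs.

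Over the 7 EC and RF arrays alone Nfkb1 and Nfkb2 ran opposite (r = -0.97, the lowest of all pairs). Rela and Birc3 ran together (r = 0.96, the highest of all pairs). Over the 9 groups the same pairs had r = 0.28 and r = 0.32. These correlations describe 9 group means or 7 arrays that share samples, and carry no test. The measured genes with the group profile most like that of each were Sgcb for Nfkb1 (r = 0.995 over 9 groups), Fzd2 for Rela (0.985), Znhit3 for Nfkbiz (0.981), Ifi30 for Nfkbia (0.979), Fkbp1b for Bcl3 (0.967), Serpinb8 for Nfkb2 (0.961), B4galt5 for Nfkbie (0.944) and Mocs2 for Birc3 (0.942). Of 11069 genes 144 had r above 0.95 with Nfkb1 and 65 with Rela, but 1 with Nfkb2, 0 with Nfkbie and 0 with Birc3. Such counts for genes outside this group are not given here, so these have no usual value beside them.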

How the data were processed

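The authors deposited linear intensity values, already normalized by a method not given in the sources used here. Array medians lay between 156.5 and 165.4. Values were floored at the 1st percentile (62.25) and log2 transformed, with no further normalization. Probe names came from the platform's annotation (20369 probes with 1 symbol), updated for the wider lists through the RefSeq table of GRCr8. The brightest probe stood for a gene with more than 1. Tests used limma 3.58.1 in R 4.3.3 (lmFit, eBayes) over all 18619 probes that passed the filter, with Benjamini-Hochberg adjustment at 0.05. They were also run on simulated arrays that all varied alike, which cannot check whether a lone array varies as duplicates do. Comparisons with a duplicated group, and EC against RF in the ASTspan8 effect, used 9 group means over 11 arrays (2 residual degrees of freedom), so that a lone array is taken to vary as duplicates do. Effects over both cell types used cell type plus treatment over 7 arrays (3 residual degrees of freedom). No label says that duplicates are separate cultures, so a p-value reflects spread that may be technical. Where both groups had 1 array there was no test, and genes at least 2-fold apart were counted. Besides the genes of interest, the text names up to 4 genes of each list with the largest difference among those called, the brightest probe standing for each, and the gene of most alike group means. The genes, lists and alternatives were chosen with earlier results of these data known. Promoter sequences are RefSeq's.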

Additional observations from a re-analysis of the deposited data

Results flagged for a closer look

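In 6 cases the values of a gene after the same treatment were flagged as unlike in EC and RF. For Nfkbie the ASTspan8 effect in EC minus that in RF was -0.81 log2 (adjusted p = 0.0161 by limma). It rests mostly on 2 single RF arrays (a difference of 0.88) with a spread taken from duplicates of other groups, and the adjusted p was 0.116 and 0.119 with either EC duplicate left out. The other 5 stand out only because the values had opposite signs, and the differences were not tested. After AS exosomes against control, 1 array each, Nfkbiz gave -0.89 in EC and 0.35 in RF (a difference of -1.24) and Bcl3 gave -0.71 and 0.49 (-1.20). Nfkbie gave -0.16 and 0.12 (-0.28) and Nfkb1 gave 0.07 and -0.04 (0.11). The largest duplicate difference was 0.14, and both Nfkb1 values lie within it, so neither cell type was shown to move. For ASTspan8 against AS exosomes Bcl3 was higher on both EC arrays (0.71 and 0.67) and lower in RF (-0.28), a difference of 0.97.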

How the results depend on the processing

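The alternatives were 2 other normalizations, other filters on dim probes, no floor, trend and robust moderation, the mean of a gene's probes, fewer arrays and other fold thresholds. No gene that was called turned its direction under any of them. For ASTspan8 exosomes against control in EC, 3 of 8 genes were called, 1 when dim probes were not filtered, and 4 with quantile normalization, a filter at percentile 75 or trend and robust moderation, where Nfkb1 passed too (adjusted p = 0.0483, 0.0138 and 0.0245 by limma). It ran from 0 to 3 with 1 array of a duplicated group left out. For ASTspan8 against AS exosomes in EC it moved from 3 to 0 when dim probes were not filtered, 0 with only the EC arrays, 0 with only the EC and RF arrays and 6 group means, 7 of 7 with a filter at percentile 75 (Birc3 dropped out) and 7 of 8 with trend and robust moderation. It was 0 with any array of a duplicated group left out. The ASTspan8 effect in EC minus that in RF had 1 gene, and 0 to 1 with an array left out. Exosome RNA against ASML kept a count of 6 throughout, and the 4 additive comparisons 0. At a 1.5-fold threshold the untested counts moved from 0 to 2 for AS exosomes in EC, from 1 to 2 for ASTspan8 exosomes against control in RF and from 1 to 4 against AS exosomes in RF, and at 3-fold the second moved to 0. Where limma called 0 genes in a comparison that otherwise had calls, the number with an unadjusted p under 0.05 was 3 for ASTspan8 exosomes against control in EC, 4 to 8 against AS exosomes and 1 for EC minus RF. The 5 genes low in ASML with CD44 knock-down were 5 at 1.5-fold and 4 at 3-fold, and the difference of Bcl3 ran from -3.17 to -3.13 under other normalizations, while Rela after AS exosomes in RF moved from -0.45 to -0.24 with the mean of its probes. The cause of these moves was not tested. No paired analysis was possible because only 1 array of each duplicated group carries a replicate number and every other group has 1 array. Single arrays limit these results, and signal over background could not be judged from these values.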
